A study of Mus musculus with 9 samples.

Results

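Fatty acid oxidation and the target genes of PPARα were followed in mouse kidney as 40 genes, picked by symbol from a table of 34310 genes. All 40 were in the table, each with at least 695 counts in every library, and all 40 were among the 15015 genes tested. By role they comprised Ppara itself, 4 genes of fatty acid uptake and activation, the carnitine acyltransferase gene Crat, 18 genes of mitochondrial enzymes, 8 of peroxisomal enzymes, the peroxisome division gene Pex11a, 2 of cytosolic thioesterases, 2 of ω-hydroxylases and 3 other PPARα targets. Kidneys of 9 mice in 3 groups were sequenced: 3 mice given lipopolysaccharide and thymosin β4 (LPS+Tβ4), 3 given lipopolysaccharide alone (LPS) and 3 given saline. Lipopolysaccharide is the endotoxin of Gram-negative bacteria, and thymosin β4 is a small peptide that binds actin monomers. The labels name no genotype, strain, sex, age, dose, time or route, and every kidney was whole tissue, so each level is a mean over all cell types of the sample.

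Fatty acids are the main fuel of the proximal tubule. They are bound and activated to acyl-CoA in the cytosol, carried into mitochondria as carnitine esters and shortened by repeated rounds of dehydrogenation, hydration, a second dehydrogenation and thiolysis, while peroxisomes shorten very long and branched chains. PPARα is a nuclear receptor that binds fatty acids, pairs with the retinoid X receptor and switches on genes of both compartments, together with ω-hydroxylases, thioesterases and proteins of lipid droplets.

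Library totals were 60.2 to 62 M counts in LPS+Tβ4 kidneys, 53 to 58.1 M in LPS kidneys and 56.6 to 59.5 M in saline kidneys. Unless FPKM, a level per transcript length, is named, values are TMM-scaled CPM, that is, counts relative to the library total. Each change is a log2 fold change with its SE, estimated in edgeR, and it was called at a Benjamini-Hochberg adjusted p under 0.05 over all tested genes. Markers of the urothelium divided the libraries across the groups. The summed level of 5 uroplakin genes, markers of the urothelium, was 1.03, 0.754 and 65.5 CPM in LPS+Tβ4 libraries, 54.8, 45.9 and 0.924 CPM in LPS libraries and 2.12, 86.5 and 74.1 CPM in saline libraries. The third library of the LPS+Tβ4 group and the third of the LPS group thus each stood apart from the other two of its group. Whether these 2 libraries were exchanged was not tested and cannot be told from the labels, and every value of LPS+Tβ4 against LPS kidneys given here takes them as labelled. Markers of the proximal tubule were present in every library, with a summed level of 3740 to 5110 CPM in LPS+Tβ4 kidneys, 1600 to 7320 CPM in LPS kidneys and 13500 to 17200 CPM in saline kidneys.

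PPARα and its partner bind 2 copies of AGGTCA separated by 1 base. This 13-letter element, AGGTCA, any base and AGGTCA again, was searched as a whole on both strands, with at most 2 mismatches, in RefSeq promoters of build GRCm38 that run from 250 bases before to 50 bases after an annotated start. Promoters were found for 34 members, and 5 of these (14.7%) held a match, against 4.4% of 27025 genes with a promoter and 3.77% of the 10499 tested ones. Since these genes are described below with opposite or no changes, the 250 bases before each start are shown on the strand of the gene, with the match in capitals. The Cd36 start is an internal one of that gene. The match lay on the opposite strand in all 5. It had 1 mismatch in Acot12 and 2 in the other 4, and it is a description of these letters and not a binding site.
Acot12, chr13:91741271-91741520, plus strand: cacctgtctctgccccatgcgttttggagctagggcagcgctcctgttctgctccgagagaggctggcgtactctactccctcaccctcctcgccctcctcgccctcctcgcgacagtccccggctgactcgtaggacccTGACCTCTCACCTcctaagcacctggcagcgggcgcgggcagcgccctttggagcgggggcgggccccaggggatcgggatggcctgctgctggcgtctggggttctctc
Acot4, chr12:84038129-84038378, plus strand: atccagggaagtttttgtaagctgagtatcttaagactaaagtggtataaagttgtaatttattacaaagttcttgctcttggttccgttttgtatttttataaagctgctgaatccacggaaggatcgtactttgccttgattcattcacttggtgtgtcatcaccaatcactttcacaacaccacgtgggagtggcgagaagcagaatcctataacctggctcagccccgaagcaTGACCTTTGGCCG
Cd36, chr5:17835897-17836146, minus strand: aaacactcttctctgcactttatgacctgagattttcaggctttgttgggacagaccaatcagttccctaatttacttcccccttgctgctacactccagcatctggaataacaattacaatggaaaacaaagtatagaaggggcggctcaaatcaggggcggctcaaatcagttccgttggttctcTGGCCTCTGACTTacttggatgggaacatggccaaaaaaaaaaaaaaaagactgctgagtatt
Etfa, chr9:55512244-55512493, minus strand: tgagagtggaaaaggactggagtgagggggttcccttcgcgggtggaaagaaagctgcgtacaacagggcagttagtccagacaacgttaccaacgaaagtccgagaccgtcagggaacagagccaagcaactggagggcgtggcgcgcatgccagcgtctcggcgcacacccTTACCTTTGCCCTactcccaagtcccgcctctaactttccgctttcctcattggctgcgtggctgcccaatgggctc
Plin2, chr4:86670060-86670309, minus strand: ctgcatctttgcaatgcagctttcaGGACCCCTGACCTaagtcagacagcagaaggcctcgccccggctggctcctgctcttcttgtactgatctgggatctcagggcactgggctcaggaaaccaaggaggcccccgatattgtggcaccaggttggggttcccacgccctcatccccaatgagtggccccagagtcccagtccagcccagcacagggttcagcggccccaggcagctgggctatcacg
Plin2 was higher, and Acot4 and Etfa were lower, in LPS kidneys, while Acot12 and Cd36 passed no test. In LPS against saline kidneys the 5 thus included higher, lower and uncalled members. Crat, Acaa2, Decr1, Cyp4a10, Cyp4a14 and Angptl4 had no promoter to search. Whether a match bears on any change was not tested.

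In saline kidneys the members spanned a wide range of FPKM. The fatty acid transporter and acyl-CoA synthetase gene Slc27a2 stood first with 585 ± 97.1 FPKM (SD, n = 3), followed by the medium-chain synthetase gene Acsm2 with 522 ± 47.3 and the medium-chain dehydrogenase gene Acadm with 212 ± 48.5. Slc27a2 and Acsm2 did not separate beyond their spread. Ppara was last with 7.95 ± 2.63 FPKM, 11 members exceeded 100 FPKM and 11 stayed under 20. The order differed in LPS kidneys, where the lipid droplet gene Plin2 was first with 537 ± 199 FPKM, against rank 27 and 22.4 ± 6.16 FPKM in saline kidneys. Pdk4, whose product blocks pyruvate dehydrogenase and so spares glucose carbon, was second with 363 ± 215 FPKM in LPS kidneys, against rank 32 and 18.5 ± 18.3 FPKM in saline kidneys. In LPS+Tβ4 kidneys Slc27a2 led again with 399 ± 144 FPKM and Plin2 was second with 362 ± 122, values that overlapped.

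Endotoxin moved the members in both directions. In LPS kidneys 7 of 40 members were higher and 16 were lower than in saline kidneys, with 17 not passing, against 20.9% of all tested genes called higher and 22.2% called lower (43.1% in either direction). That is 17.5% of the members higher and 40% lower, and the median change of the members was -0.57, against 0.02 over all tested genes. The 7 higher members were Plin2, Pdk4, Angptl4, Acot1, Acot2, Acadl and Pex11a. The lower ones included 10 of the 18 mitochondrial enzymes and 3 of the 8 peroxisomal enzymes. Fewer cells of a type and less RNA per cell cannot be told apart in whole tissue. Of 16 proximal tubule markers, 13 also fell in LPS kidneys, with a median change of -2.52. Of 8 markers of the loop of Henle and the collecting duct, 5 fell, with a median of -2.34 and a summed level of 652 to 3210 CPM in LPS kidneys and 4010 to 5710 CPM in saline kidneys. Transcripts of the mitochondrial chromosome made up 7.64% to 10.6% of counts in LPS libraries and 12.9% to 16.2% in saline libraries. The part of these 3 measures in the members' falls was not tested. Without the third LPS library 6 members were higher and 20 lower, against 20.5% and 21.1% of all tested genes.

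**Figure D1:**
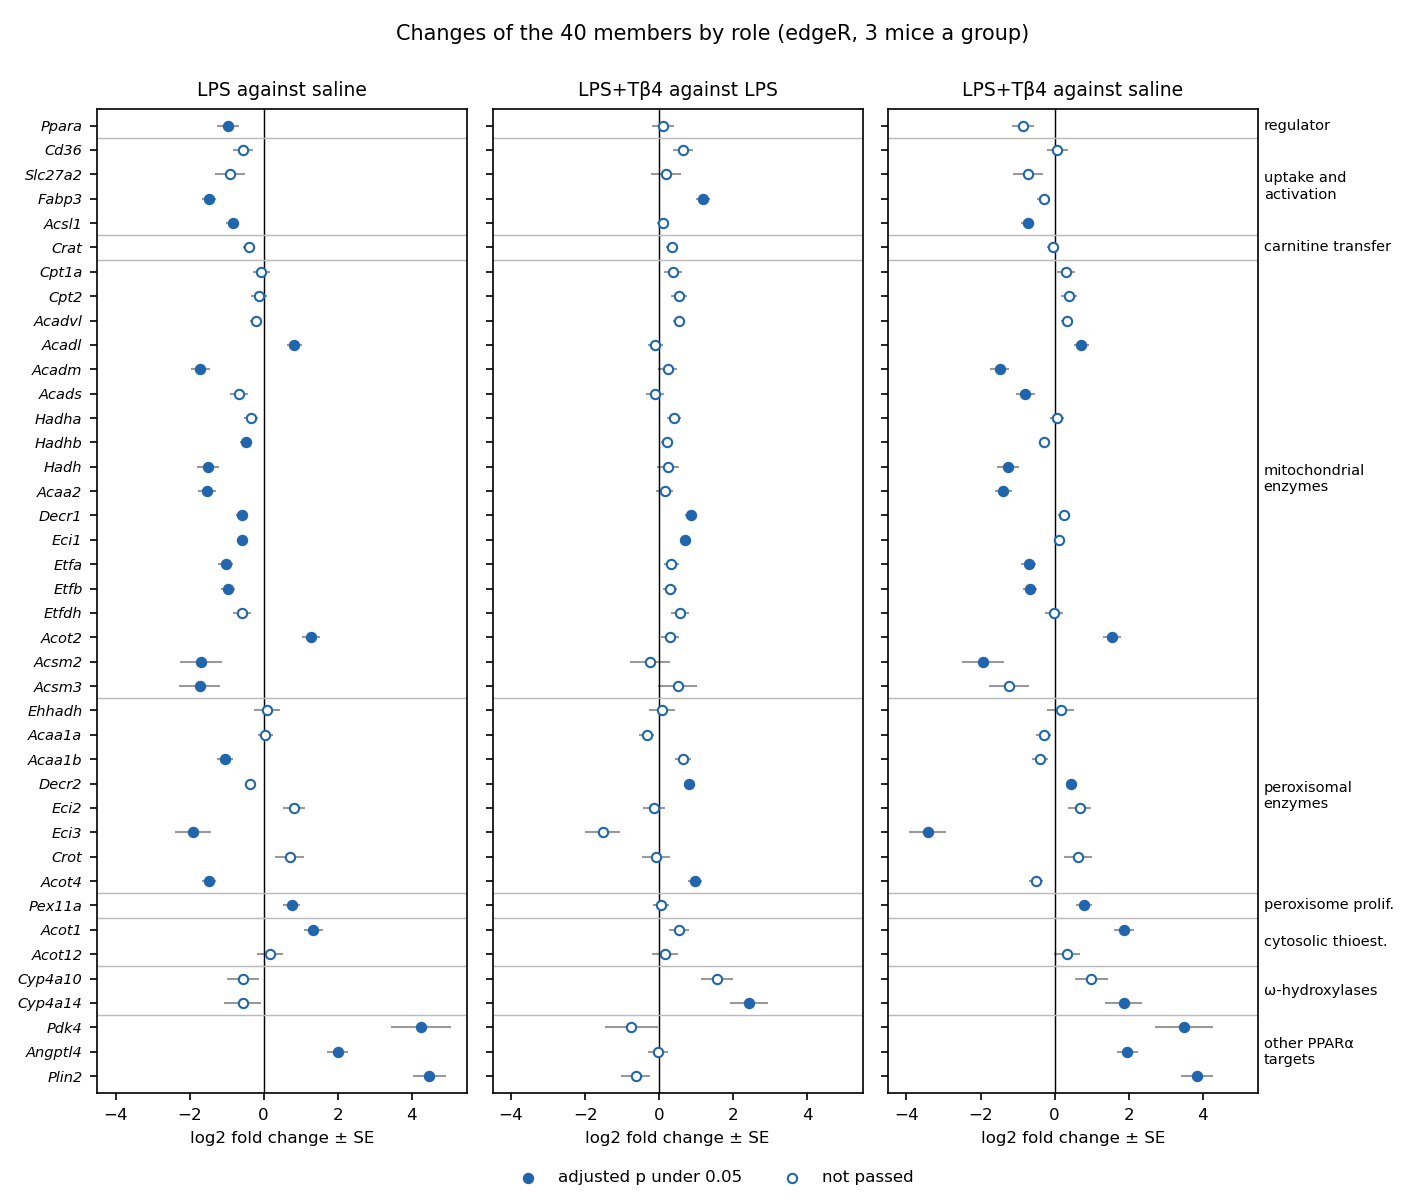
Log2 fold changes (x axis, ± SE from edgeR) of the 40 members, grouped by role down the page, for LPS against saline, LPS+Tβ4 against LPS and LPS+Tβ4 against saline. Filled points passed an adjusted p of 0.05 (23, 6 and 18 members), and open points did not.

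Ppara, the receptor itself, was measured at 18.6, 25.3 and 17.2 CPM in LPS+Tβ4 kidneys, 17, 14.2 and 25.9 CPM in LPS kidneys and 24.7, 42.7 and 42.9 CPM in saline kidneys. The third LPS library lay just above the first saline library, so the ranges overlapped, and the other two LPS libraries lay below every saline library. The change in LPS against saline kidneys was -0.95 ± 0.30 (edgeR adjusted p = 0.031), a 1.93-fold lower level, and 10 of 19 alternative settings or left-out libraries lost the call. The change in LPS+Tβ4 against LPS kidneys was 0.10 ± 0.30 (adjusted p = 0.88). Of 15 tested partners and coregulators, 7 (46.7%) fell and 0 rose in LPS kidneys in edgeR, against 22.2% and 20.9% of all tested genes. Of the 15, 0 were higher in DESeq2 or in edgeR at an unadjusted p under 0.05. Among them was Ppargc1a, the coactivator of mitochondrial biogenesis, with 29.8 ± 8.45 CPM in LPS+Tβ4 kidneys, 19.8 ± 5.21 CPM in LPS kidneys and 81.8 ± 11 CPM in saline kidneys. Hnf4a, a receptor of epithelial identity that shares the spacing of the PPARα element, had 304 ± 83.4 CPM in LPS+Tβ4 kidneys, 181 ± 81.6 CPM in LPS kidneys and 804 ± 92.1 CPM in saline kidneys. Between LPS+Tβ4 and LPS kidneys 0 of the 15 passed in edgeR or DESeq2, with 2 higher at an unadjusted edgeR p under 0.05. In edgeR 6.83% of all tested genes passed in that comparison.

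Of 4 genes of fatty acid uptake and activation, 2 (50%) were lower in LPS kidneys, against 22.2% of all tested genes. Fabp3, a cytosolic fatty acid carrier, had 39.6, 58.5 and 39.4 CPM in LPS+Tβ4 kidneys, 22, 17.4 and 21 CPM in LPS kidneys and 62, 52.2 and 54.1 CPM in saline kidneys. All 3 LPS libraries lay below the 6 others, and the ranges of LPS+Tβ4 and saline kidneys overlapped. Fabp3 was 2.79-fold lower in LPS kidneys (-1.48 ± 0.19, edgeR adjusted p = 0.00056), and the call held in all 19 alternatives. Fabp3 overlaps Zcchc17 on the other strand over 81 bases, and Zcchc17 averaged 17.4 CPM against 40.7 CPM for Fabp3. Acsl1, a long-chain acyl-CoA synthetase, had 152 to 197 CPM in LPS kidneys and 243 to 348 CPM in saline kidneys, a change of -0.84 ± 0.17 (adjusted p = 0.0049). Slc27a2 had 905, 1210 and 2140 CPM in LPS kidneys, all below the 2490 to 2950 CPM of saline kidneys, and the change did not pass (-0.91 ± 0.41, adjusted p = 0.10). Cd36, a scavenger receptor that takes up fatty acids, overlapped between these groups (-0.57 ± 0.27, adjusted p = 0.13). Crat, which forms acetylcarnitine, had 93 to 130 CPM in LPS kidneys and 136 to 157 CPM in saline kidneys and did not pass (-0.40 ± 0.16, adjusted p = 0.080).

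Neither carnitine palmitoyltransferase gene passed in LPS kidneys. Cpt1a, the carnitine palmitoyltransferase of the outer membrane and the rate-limiting step, had 594, 698 and 429 CPM in LPS+Tβ4 kidneys, 389, 359 and 586 CPM in LPS kidneys and 438, 475 and 477 CPM in saline kidneys. The third LPS library was above the saline range and the other two below it. Its change in LPS kidneys was -0.06 ± 0.24 (edgeR adjusted p = 0.86), with values from -0.31 to 0.13 over 19 alternatives, so its sign was not fixed. Cpt2, the carnitine palmitoyltransferase of the inner membrane, changed by -0.13 ± 0.22 (adjusted p = 0.64). A value that misses the threshold does not show that the level was the same.

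After carnitine transfer, the acyl-CoA dehydrogenases, which start each round and differ in the chain length they prefer, went different ways. Acadl, the long-chain enzyme, had 281, 256 and 218 FPKM in LPS+Tβ4 kidneys, 243, 273 and 267 FPKM in LPS kidneys and 118, 166 and 117 FPKM in saline kidneys. Acadm, the medium-chain enzyme, had 87.3, 98.5 and 73.9 FPKM in LPS+Tβ4 kidneys, 71.8, 54.4 and 87.4 FPKM in LPS kidneys and 195, 267 and 174 FPKM in saline kidneys. Saline kidneys were thus lower in Acadl and higher in Acadm than all 6 endotoxin-treated kidneys, with no overlap. On the count scale Acadl was 1.78-fold higher in LPS kidneys (0.83 ± 0.21, adjusted p = 0.013) and Acadm 3.28-fold lower (-1.71 ± 0.26, adjusted p = 0.0012). The ratio of Acadl to Acadm FPKM was 3.22, 2.6 and 2.95 in LPS+Tβ4 libraries, 3.38, 5.02 and 3.06 in LPS libraries and 0.604, 0.623 and 0.672 in saline libraries. The predominant transcript of the pair was therefore Acadl in the 6 endotoxin-treated libraries and Acadm in the 3 saline libraries. Acads, the short-chain enzyme, had 84.4, 101 and 159 CPM in LPS kidneys, below the 176 to 189 CPM of saline kidneys, and missed the threshold (-0.67 ± 0.25, adjusted p = 0.055). Acadvl, the very-long-chain enzyme, changed by -0.20 ± 0.16 (adjusted p = 0.36). Acadvl shares 2119 bases of its locus with Dvl2 on the other strand, which averaged 13.2 CPM over the 9 libraries against 281 CPM for Acadvl.

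**Figure D2:**
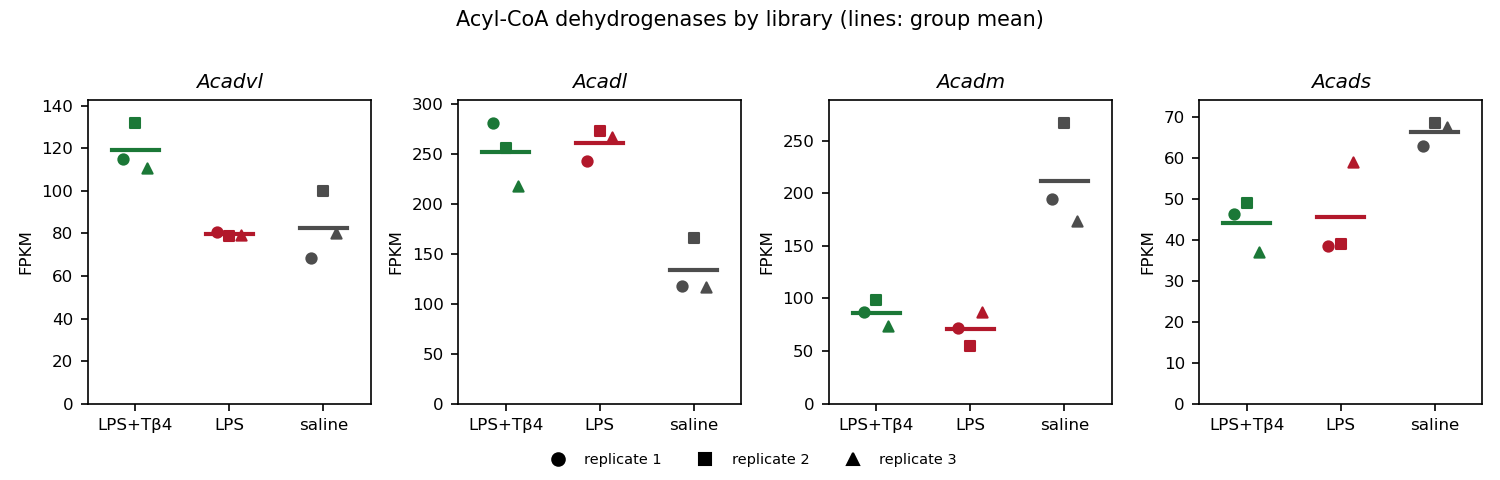
FPKM (y axis, from 0) of the very-long-, long-, medium- and short-chain acyl-CoA dehydrogenase genes in each library of LPS+Tβ4, LPS and saline kidneys. Lines are group means and symbols replicates. Acadl lay at 218 to 281 FPKM in the 6 endotoxin-treated libraries and at 117 to 166 FPKM in saline libraries, while Acadm lay at 54.4 to 98.5 FPKM in the endotoxin-treated and at 174 to 267 FPKM in saline libraries.

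Of the later steps of the mitochondrial round, the short-chain hydroxyacyl-CoA dehydrogenase, the thiolase and 1 subunit of the trifunctional protein were lower in LPS kidneys. Hadh, the first of these, had 186, 221 and 155 CPM in LPS+Tβ4 kidneys, 102, 131 and 240 CPM in LPS kidneys and 449, 431 and 462 CPM in saline kidneys. Acaa2, the mitochondrial thiolase, had 70.9, 94.5 and 98.4 CPM in LPS+Tβ4 kidneys, 52.5, 94 and 91.4 CPM in LPS kidneys and 227, 213 and 250 CPM in saline kidneys. For both genes the 6 endotoxin-treated libraries stayed below every saline library. Hadh changed by -1.50 ± 0.30 (edgeR adjusted p = 0.0045) and Acaa2 by -1.54 ± 0.24 (adjusted p = 0.0014) in LPS kidneys. Hadha and Hadhb encode the 2 subunits of the long-chain trifunctional protein and start 273 bases apart on opposite strands of chromosome 5 in the RefSeq promoters. Hadhb was 1.4-fold lower (-0.48 ± 0.15, adjusted p = 0.030), a call lost in 10 of 19 alternatives, and Hadha did not pass (-0.34 ± 0.19, adjusted p = 0.18).

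Of 3 genes that pass electrons on to the respiratory chain, 2 fell in LPS kidneys, where 22.2% of all tested genes were lower. Etfa and Etfb, the subunits of the electron transfer flavoprotein, changed by -1.03 ± 0.21 (edgeR adjusted p = 0.0046) and -0.97 ± 0.19 (adjusted p = 0.0040) in LPS kidneys. Etfa had 124, 159 and 207 CPM in LPS kidneys and 331, 337 and 332 CPM in saline kidneys, without overlap. Etfdh, the oxidoreductase that receives their electrons, had 102, 117 and 188 CPM in LPS kidneys and 183, 212 and 215 CPM in saline kidneys. These ranges overlapped through the third LPS library, and Etfdh did not pass (-0.58 ± 0.24, adjusted p = 0.085). Decr1 and Eci1, auxiliary enzymes that deal with double bonds of unsaturated fatty acids, were both 1.51-fold lower in LPS kidneys (adjusted p = 0.016 and 0.0044).

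The medium-chain synthetase genes Acsm2 and Acsm3 had large falls and the widest errors among the mitochondrial members. Acsm2 had 1290, 1620 and 781 CPM in LPS+Tβ4 kidneys, 447, 1340 and 2590 CPM in LPS kidneys and 4600, 4350 and 5220 CPM in saline kidneys. Acsm3 had 546, 680 and 145 CPM in LPS+Tβ4 kidneys, 275, 226 and 467 CPM in LPS kidneys and 1030, 1440 and 746 CPM in saline kidneys. Saline libraries were the highest for both genes, and the LPS libraries of Acsm2 were spread widely. The changes in LPS kidneys were -1.70 ± 0.56 (edgeR adjusted p = 0.039) for Acsm2 and -1.73 ± 0.55 (adjusted p = 0.032) for Acsm3, and these calls were lost in 10 and 7 of 19 alternatives. Without the third LPS library the change of Acsm2 was -2.41 (adjusted p = 0.0095). Acsm3 overlaps Eri2 on the other strand over 18835 bases, and Eri2 averaged 29.1 CPM against 617 CPM for Acsm3. Acot2, a mitochondrial thioesterase that frees fatty acids from acyl-CoA, went the other way, with 75.1, 74.6 and 51.2 CPM in LPS+Tβ4 kidneys, 39.3, 51.9 and 74 CPM in LPS kidneys and 24.1, 23.9 and 20.5 CPM in saline kidneys. Every endotoxin-treated library exceeded the saline range, and the change in LPS kidneys was 1.27 ± 0.25 (adjusted p = 0.0039).

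Peroxisomal enzymes were split. Ehhadh, the bifunctional enzyme, had 926, 922 and 455 CPM in LPS+Tβ4 kidneys, 540, 528 and 1120 CPM in LPS kidneys and 666, 701 and 693 CPM in saline kidneys. Libraries lay on both sides of the saline range, and its change in LPS kidneys was 0.09 ± 0.36 (edgeR adjusted p = 0.87). Crot, which hands shortened chains to carnitine, changed by 0.70 ± 0.38 (adjusted p = 0.17) and Eci2, an enoyl-CoA isomerase found in both compartments, by 0.82 ± 0.31 (adjusted p = 0.060). Eci3, the close relative of Eci2 on chromosome 13, had 21.8, 19.1 and 9.95 CPM in LPS+Tβ4 kidneys, 19.2, 47 and 80.2 CPM in LPS kidneys and 161, 190 and 196 CPM in saline kidneys. All endotoxin-treated libraries lay below the saline range, and the change in LPS kidneys was -1.90 ± 0.48 (adjusted p = 0.013). The ratio of Eci3 to Eci2 FPKM was 0.442, 0.388 and 0.315 in LPS+Tβ4 libraries, 0.659, 1.07 and 1.14 in LPS libraries and 5.93, 6.58 and 7.81 in saline libraries. Transcripts of the 2 genes are 89.1% identical over 991 bases, so reads that match both could be divided between them by the counting.

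Acot4, a peroxisomal thioesterase, fell with Eci3. It had 66.9, 70.9 and 43.3 CPM in LPS+Tβ4 kidneys, 29.3, 28.2 and 35 CPM in LPS kidneys and 87.1, 78.2 and 91.5 CPM in saline kidneys, 3 ranges that did not overlap. Its change in LPS kidneys was -1.47 ± 0.20 (edgeR adjusted p = 0.00069), and the call held in all 19 alternatives. The thiolases Acaa1a and Acaa1b, with transcripts 96.6% identical over 1428 bases, differed, although reads that match both could be divided between them by the counting. Acaa1b had 92.6, 60.8 and 100 CPM in LPS kidneys and 193, 158 and 171 CPM in saline kidneys, a change of -1.04 ± 0.22 (adjusted p = 0.0063). Acaa1a changed by 0.04 ± 0.20 (adjusted p = 0.88), and 366 bases of the gene overlap Myd88 on the other strand, which averaged 57.4 CPM against 96.1 CPM for Acaa1a. Acaa1b overlaps Dlec1 on the other strand over 224 bases, with 30.3 CPM for Dlec1 against 130 CPM for Acaa1b. Because the strand setting of the counting was not stated, reads of such overlaps cannot be told apart. Decr2, the peroxisomal dienoyl-CoA reductase, lay lower in all LPS libraries but missed the threshold (-0.37 ± 0.14, adjusted p = 0.063).

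The largest rises in LPS kidneys belonged to PPARα targets that are not enzymes of oxidation. Plin2, which coats lipid droplets, had 1980, 1150 and 958 CPM in LPS+Tβ4 kidneys, 1320, 1830 and 3190 CPM in LPS kidneys and 78.2, 116 and 90.7 CPM in saline kidneys. Pdk4 had 1220, 834 and 524 CPM in LPS+Tβ4 kidneys, 670, 1140 and 2530 CPM in LPS kidneys and 26.3, 157 and 44.9 CPM in saline kidneys. Both genes stood far above saline in all 6 endotoxin-treated libraries, with the third LPS library the highest of the 9. Plin2 was 22.2-fold higher (4.48 ± 0.44, edgeR adjusted p = 0.00020) and Pdk4 19.0-fold higher (4.25 ± 0.81, adjusted p = 0.0036) in LPS kidneys. The size of the Pdk4 change rested on single libraries, at 40.6-fold without the second saline library and 11.9-fold without the third LPS library. With a term for the urothelial list the log2 fold change of Pdk4 was 2.87, against 4.25, and the call was lost (edgeR adjusted p = 0.10). That list holds Krt20, which itself had 573, 226 and 549 CPM in LPS libraries and 2.12, 3.59 and 7.08 CPM in saline libraries. With this term 5.02% of all tested genes were higher and 5.89% lower, against 20.9% and 22.2% without it. The Pdk4 call held in the 18 other alternatives. Plin2 and Angptl4 are also made in adipocytes, and the summed level of 7 adipocyte markers was 7.79, 26.5 and 456 CPM in LPS+Tβ4 libraries, 101, 382 and 11.5 CPM in LPS libraries and 89.4, 509 and 156 CPM in saline libraries. In edgeR 0 of these 7 markers passed between LPS and saline kidneys, and 0 did so in DESeq2 or at an unadjusted edgeR p under 0.05. Counts were 0 for 4 of the 7 in the third LPS library, for 2 in the first LPS+Tβ4 library, for 1 in the first saline library and for 1 in the third saline library. The adipocyte hormone genes Adipoq and Lep were among those at 0 in the third LPS library. The part of adipocytes in the levels of Plin2 and Angptl4 was not tested.

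Angptl4, which inhibits lipoprotein lipase, had 281, 238 and 208 CPM in LPS+Tβ4 kidneys, 160, 267 and 316 CPM in LPS kidneys and 65.2, 76.3 and 44.7 CPM in saline kidneys. The endotoxin-treated libraries were all above the saline ones, and the change in LPS kidneys was 2.00 ± 0.29 (edgeR adjusted p = 0.0011). Acot1, a cytosolic thioesterase 93.8% identical to Acot2 over 1337 bases of transcript, had 226, 210 and 117 CPM in LPS+Tβ4 kidneys, 101, 116 and 164 CPM in LPS kidneys and 49.5, 53.3 and 47.1 CPM in saline kidneys. It also exceeded the saline range in every such library (1.35 ± 0.27, adjusted p = 0.0045, LPS against saline). Reads that match both Acot1 and Acot2 could be divided between them by the counting. Pex11a, which acts in peroxisome division, had 122, 102 and 75.8 CPM in LPS+Tβ4 kidneys, 86.7, 90.1 and 113 CPM in LPS kidneys and 71.6, 52.2 and 47.9 CPM in saline kidneys. It was 1.69-fold higher in LPS kidneys (0.76 ± 0.22, adjusted p = 0.023). The acetyl-CoA thioesterase gene Acot12 did not pass (0.16 ± 0.35, adjusted p = 0.73).

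**Figure D3:**
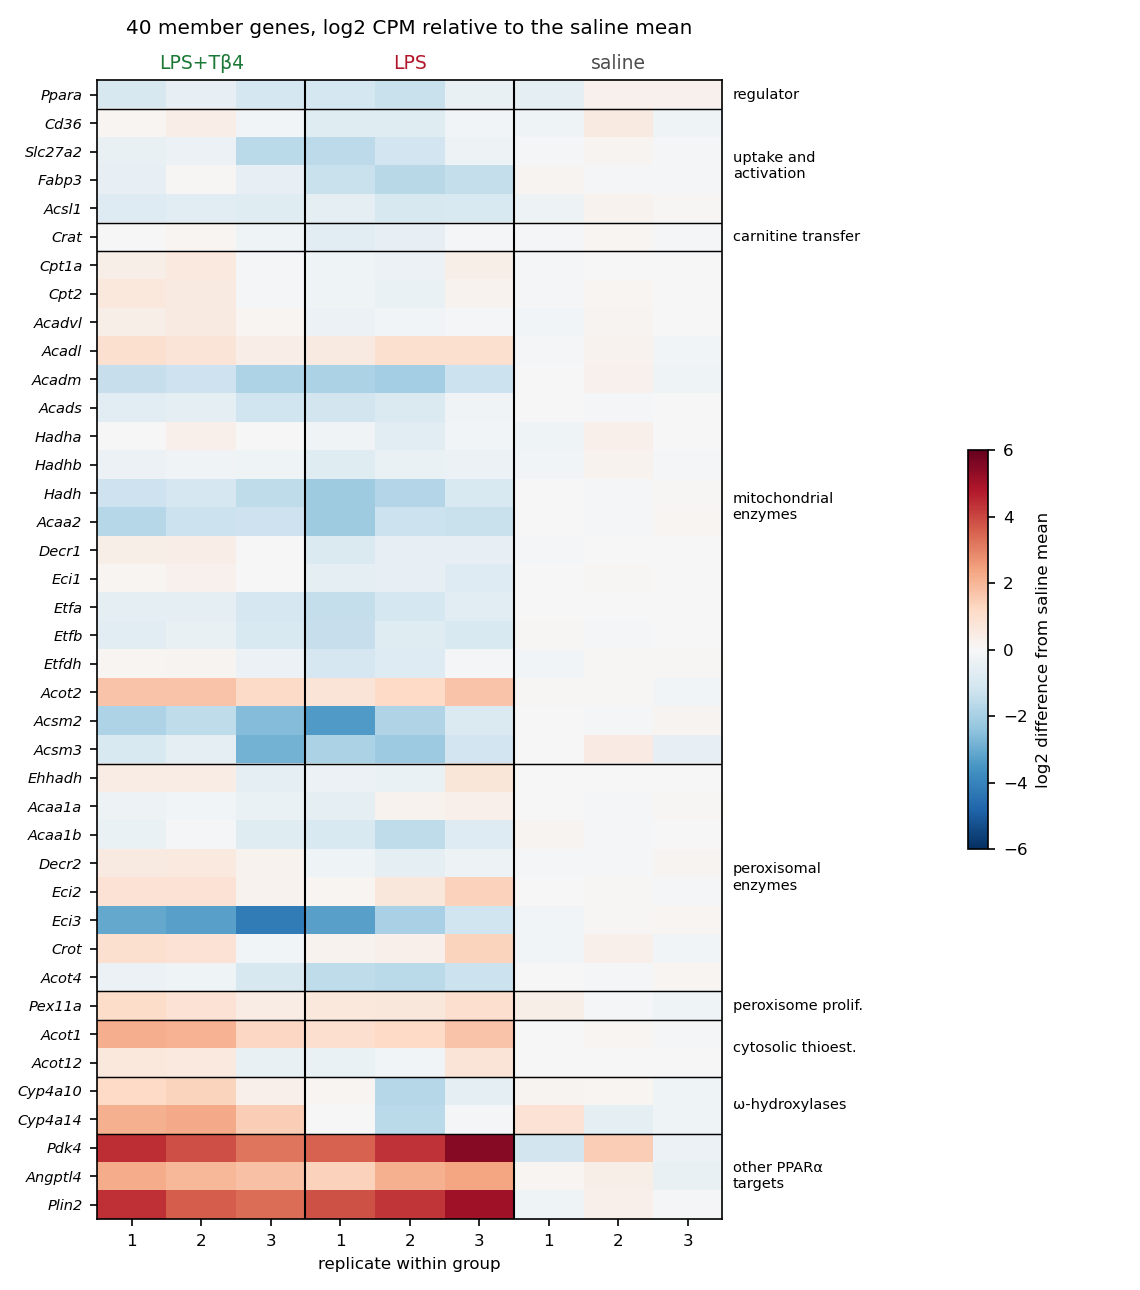
Level of each of the 40 members (rows, by role) in each library (columns: 3 of LPS+Tβ4, 3 of LPS, 3 of saline), as log2 CPM minus the mean log2 CPM of the saline libraries. Red is above and blue below that mean. Plin2, Pdk4, Angptl4, Acot1 and Acot2 are above it in all 6 endotoxin-treated libraries, and Eci3, Acadm, Hadh, Acaa2 and Acsm2 are below it in all 6.

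Thymosin β4 given with endotoxin was set against endotoxin alone to ask which of these levels differed with the peptide. In LPS+Tβ4 kidneys 6 of 40 members were higher and 0 lower than in LPS kidneys, and 34 did not pass, against 4.5% of tested genes called higher and 2.33% called lower (6.83% in either direction). The median change of the members was 0.27, with 30 above and 10 below 0, against -0.01 over all tested genes. Values of cell type markers are given beside them. Proximal tubule markers had a median change of 0.65, with 10 of 16 above 0, and 0 passed in edgeR, while 6 were higher and 1 lower at an unadjusted p under 0.05 and DESeq2 called 4 higher and 1 lower. Macrophage markers had a median change of 1.02, with 5 of 6 above 0, and 0 passed in edgeR, while 5 were higher at an unadjusted p under 0.05 and DESeq2 called 3 higher. The summed macrophage level was 77.9 to 90.8 CPM in LPS+Tβ4 libraries, 47.4 to 73.1 CPM in LPS libraries and 53.3 to 98.5 CPM in saline libraries, so the endotoxin groups did not overlap. Loop of Henle and collecting duct markers had a median change of 0.47, with 7 of 8 above 0, and 1 (12.5%) was higher in edgeR. Endothelial markers had a median change of -0.16, with 5 of 7 below 0. Of these, 0 passed in edgeR or DESeq2, or at an unadjusted edgeR p under 0.05. The part of these markers in the members' values was not tested. The 6 members called higher were Cyp4a14, Fabp3, Acot4, Decr1, Decr2 and Eci1. At an unadjusted p under 0.05, 1 member was lower in edgeR, and DESeq2 called 1 lower at the same adjusted threshold. In both cases this was Eci3.

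Cyp4a14, a microsomal ω-hydroxylase that opens a route of fatty acid breakdown outside mitochondria, had 323, 360 and 205 CPM in LPS+Tβ4 kidneys, 72, 23.9 and 68.7 CPM in LPS kidneys and 135, 48.5 and 61.1 CPM in saline kidneys. All LPS+Tβ4 libraries lay above the 6 others. The gene was 5.4-fold higher than in LPS kidneys (2.43 ± 0.52, edgeR adjusted p = 0.034) and 3.64-fold higher than in saline kidneys (1.86 ± 0.51, adjusted p = 0.030), or 5.58-fold without the first saline library. The first saline library, the highest of its group in Cyp4a14, also held 309 CPM of the liver transcript Alb, against 5.51 and 8.11 CPM in the other two, and its part in this level was not tested. Cyp4a10, the related ω-hydroxylase gene, had 768, 839 and 413 CPM in LPS+Tβ4 kidneys, 359, 101 and 223 CPM in LPS kidneys and 370, 359 and 283 CPM in saline kidneys. Its LPS+Tβ4 libraries were again the highest 3 of the 9, but the change against LPS kidneys missed the threshold (1.56 ± 0.44, adjusted p = 0.070). Cyp4a10 transcripts are 96% identical to those of Cyp4a31 over 1593 bases, and reads could be divided between the 2 genes.

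The other 5 members that were higher with the peptide had smaller changes. Fabp3 was 2.28-fold higher than in LPS kidneys (1.19 ± 0.18, edgeR adjusted p = 0.017) and Acot4 1.96-fold higher (0.97 ± 0.19, adjusted p = 0.029). Decr1 had 247, 254 and 189 CPM in LPS+Tβ4 kidneys, 106, 138 and 137 CPM in LPS kidneys and 185, 197 and 194 CPM in saline kidneys, a change of 0.85 ± 0.16 against LPS (adjusted p = 0.024). Decr2 had 68.3, 71.5 and 55.8 CPM in LPS+Tβ4 kidneys, 40.2, 32.8 and 38.1 CPM in LPS kidneys and 45.9, 44.9 and 52.6 CPM in saline kidneys, a change of 0.82 ± 0.14 (adjusted p = 0.020). Each of the 3 LPS libraries lay below every LPS+Tβ4 library for both reductases. Eci1 had 71.6, 78.5 and 65.7 CPM in LPS+Tβ4 kidneys, 45.7, 46.8 and 39.2 CPM in LPS kidneys and 64.6, 69.4 and 65.3 CPM in saline kidneys (0.71 ± 0.12, adjusted p = 0.018). The isomerase genes Eci2 and Eci3 did not pass between LPS+Tβ4 and LPS kidneys, at -0.14 ± 0.31 (adjusted p = 0.82) and -1.53 ± 0.48 (adjusted p = 0.091).

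**Figure D4:**
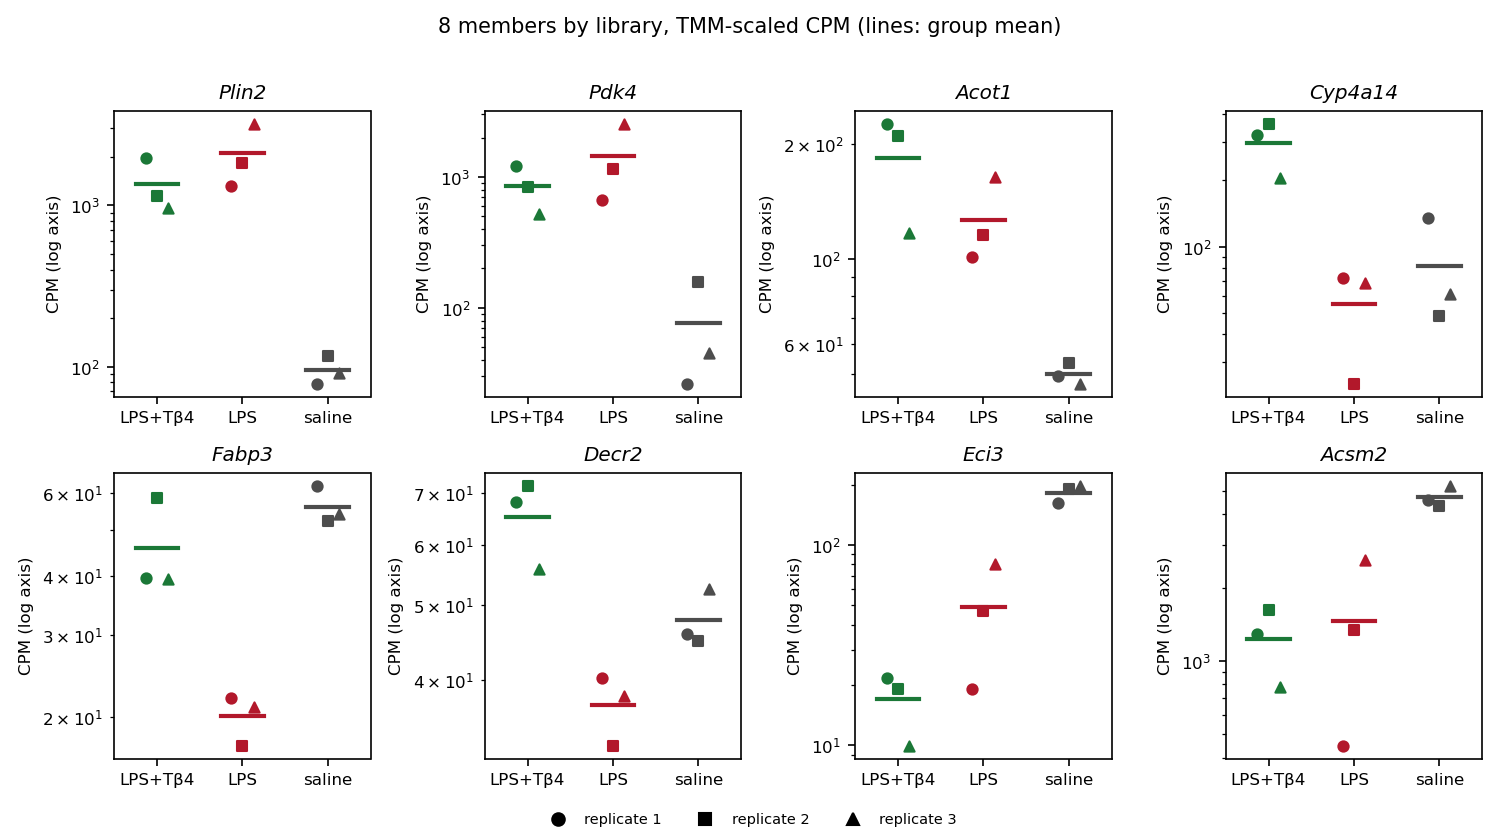
TMM-scaled CPM (y axis, log scale, its range differing between panels) of 8 members in each library of LPS+Tβ4, LPS and saline kidneys. Lines are group means and symbols replicates. Cyp4a14 lay at 205 to 360 CPM in LPS+Tβ4 libraries and at 23.9 to 72 CPM in LPS libraries, while Plin2 and Pdk4 overlapped between these groups and lay above saline in both.

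Calls in this comparison became few over the whole table, and not only among the members, when certain single libraries were left out. Without the first LPS library they became more, with 7 members higher and 2 lower, against 10% and 7.76% of all tested genes. Without the third LPS+Tβ4 library 6 members were higher, against 3.93% of all tested genes. In edgeR 0 members were higher without the second LPS library, against 0.613% of all tested genes and 9 members at an unadjusted p under 0.05. Without the second LPS+Tβ4 library 0 members were higher, against 0.433% of all tested genes and 8 members at an unadjusted p under 0.05. Without the first LPS+Tβ4 library 1 was higher, against 1.15% of all tested genes, and without the second saline library 3 were, against 2.05%. With only the 6 libraries compared 0 members and 3 of 15015 genes were higher, with 10 members at an unadjusted p under 0.05. The sign of each of the 6 was the same in all 20 alternatives, with Cyp4a14 between 2.06 and 2.80 and Eci1 between 0.64 and 0.76.

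The third LPS library and the third LPS+Tβ4 library, which stood apart in uroplakin transcripts, also stood apart in the members. The third LPS library was the highest of its group for 31 of 40 members and the third LPS+Tβ4 library the lowest of its group for 37 of 40, against 34.7% and 42.8% of all tested genes. Both held for 30 of 40 members, against 21.7% of tested genes. With both libraries left out, an alternative chosen after the data were seen, 19 members (47.5%) were higher in LPS+Tβ4 kidneys, against 6 with all libraries. Over all tested genes 6.51% were higher and 6.22% lower in that setting, against 4.5% and 2.33% with all libraries. Within libraries of like uroplakin level the median over the 40 members was smaller than the 0.27 of the fit with all libraries. Between the uroplakin-rich libraries, the third of LPS+Tβ4 against the first and second of LPS, 25 members were above 0 with a median of 0.15, and between the poor ones, the first and second of LPS+Tβ4 against the third of LPS, 22 were above 0 with a median of 0.10. The 6 called members were above 0 in both, at 2.1 and 2.31 for Cyp4a14, 1.00 and 1.22 for Fabp3, 0.59 and 0.98 for Acot4, 0.63 and 0.86 for Decr1, 0.61 and 0.88 for Decr2 and 0.51 and 0.94 for Eci1, rich before poor. These are values without a test, since each holds 1 library on one side.

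Set against saline, LPS+Tβ4 kidneys had 9 members higher, 9 lower and 22 not passing, against 12.3% of tested genes called higher and 11.8% called lower (24.1% in either direction), with a median change of 0.07. All 7 members that were higher in LPS kidneys were also higher here, with Plin2 at 3.84 ± 0.43 (edgeR adjusted p = 0.00081), Pdk4 at 3.50 ± 0.78 (adjusted p = 0.013, 4.60 without the second saline library) and Acot1 at 1.88 ± 0.27 (adjusted p = 0.0022), and Cyp4a14 and Decr2 joined them. The Decr2 call was near the threshold (0.45 ± 0.14, edgeR adjusted p = 0.048). It was lost in 10 of 19 alternatives, and that of Cyp4a14 in 5. The largest fall was that of Eci3, 10.8-fold below saline (-3.43 ± 0.51, adjusted p = 0.0026). Acsm2, Acadm, Acaa2 and Hadh were 3.84-, 2.79-, 2.61- and 2.39-fold lower than in saline kidneys, and Acsl1, Etfa, Etfb and Acads were 1.59- to 1.72-fold lower. Acads passed by the smallest margin (adjusted p = 0.0499). Leaving out single libraries brought the 9 higher members down to 4 without the third saline library and to 5 without the second saline, the first LPS+Tβ4 or the second LPS+Tβ4 library. It brought the 9 lower members down to 3 without the third saline, the first LPS+Tβ4 or the third LPS+Tβ4 library, to 4 without the second saline and to 5 without the first saline library. In the fits without these libraries 7.78% to 10.2% of all tested genes were higher and 6.29% to 8.94% lower.

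Read across the 3 comparisons, which share libraries and are therefore not independent, the members fell into few patterns. The share of all tested genes in each pattern was not counted, so the pattern counts describe the members only. The 7 members given above for LPS were called higher in both endotoxin groups than in saline. Fabp3, Decr1, Eci1 and Acot4 were 4 members called lower in LPS kidneys, higher in LPS+Tβ4 than in LPS kidneys and not different by the test from saline in LPS+Tβ4 kidneys. Another 8 members were called lower in both endotoxin groups, among them Acadm, Hadh, Acaa2, Acsl1, Etfa and Etfb, and 0 of the 8 passed between these groups in edgeR. Ppara, Hadhb, Acsm3 and Acaa1b were 4 members called lower in LPS kidneys alone. A call in one group and not in another does not show a difference between them. No comparison called 14 members, Cpt1a, Cpt2, Hadha, Ehhadh and Crot among them.

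Mitochondrial and peroxisomal enzymes were compared by their counts and medians. In LPS against saline kidneys 20.9% of all tested genes were higher and 22.2% lower. Of 18 mitochondrial enzymes 2 were higher and 10 lower there, with a median change of -0.60. Of 8 peroxisomal enzymes 0 were higher and 3 lower in edgeR, with a median of -0.16. Among them 1, Eci2, was higher at an unadjusted p under 0.05 and 1 was in DESeq2. In LPS+Tβ4 against LPS kidneys 2 of 18 and 2 of 8 were higher and 0 of either were lower, against 4.5% and 2.33% of all tested genes. The medians were 0.32 for the mitochondrial and -0.002 for the peroxisomal enzymes. In LPS+Tβ4 against saline kidneys the medians were -0.14 and -0.07. By library, the mitochondrial median relative to saline was -0.17, -0.03 and -0.32 in LPS+Tβ4 kidneys and -0.92, -0.68 and -0.41 in LPS kidneys, with saline libraries from -0.04 to 0.06. All LPS libraries were below all others on this measure. The peroxisomal median was 0.06, 0.16 and -0.50 in LPS+Tβ4 kidneys and -0.43, -0.46 and -0.004 in LPS kidneys, with saline libraries from -0.03 to 0.04. On that measure the third LPS library sat at the saline level and the third LPS+Tβ4 library beside the first and second LPS libraries, so the 2 endotoxin groups overlapped. The mitochondrial median was below the peroxisomal one in 3 of 3 LPS libraries, by 0.49, 0.22 and 0.40, and in 2 of 3 LPS+Tβ4 libraries. The members were chosen with results of these data known, so no test was made of the difference between the lists.

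**Figure D5:**
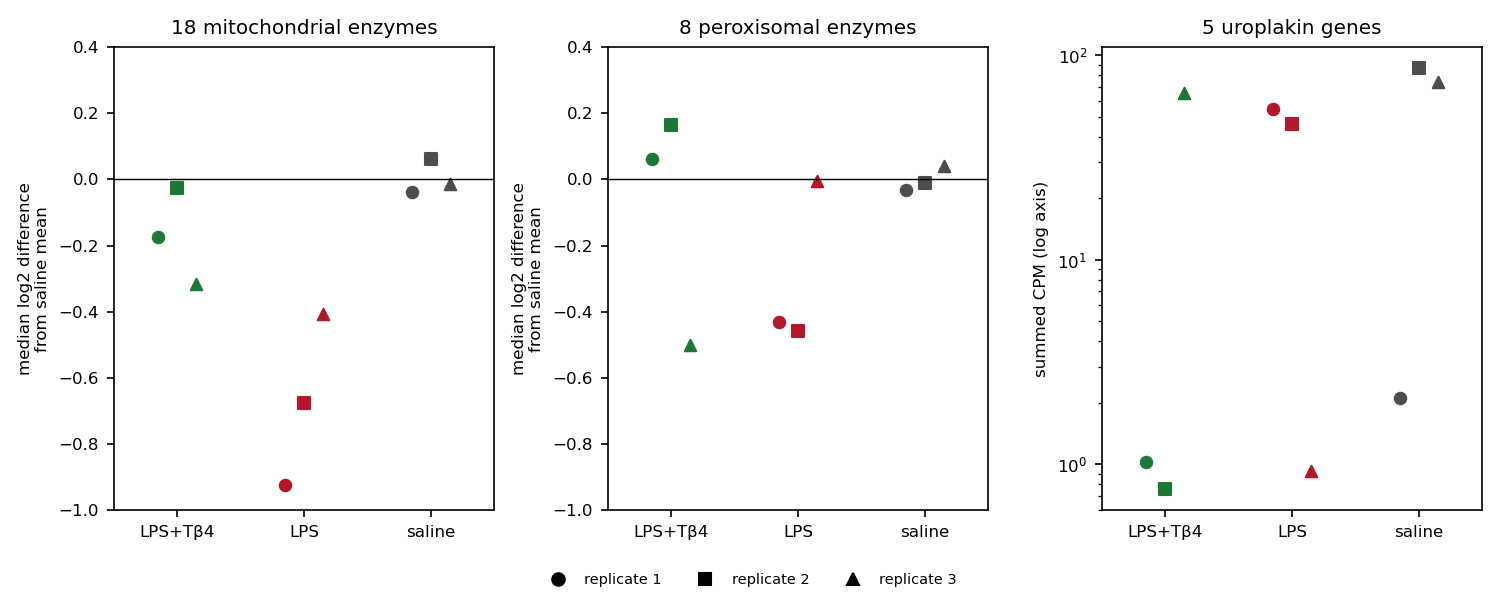
Median log2 difference from the saline mean over the 18 mitochondrial (left) and 8 peroxisomal enzymes (middle), and summed CPM of 5 uroplakin genes on a log axis (right), for each library of LPS+Tβ4, LPS and saline kidneys. Symbols are replicates. The third LPS and the third LPS+Tβ4 library, drawn as triangles, differ from the other two of their groups in the middle and right panels.

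Wider lists of the same pathways gave further values. Of 24 other genes of mitochondrial fatty acid and related acyl-CoA oxidation, 20 (83.3%) fell in LPS kidneys, against 22.2% of all tested genes, with a median change of -1.27. Acad9, an acyl-CoA dehydrogenase that also serves complex I assembly, changed by -1.54 ± 0.15 (edgeR adjusted p = 0.00020) and Acadsb, which oxidizes short branched chains, by -1.10 ± 0.12 (adjusted p = 0.00027).

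Among 19 other genes of peroxisomal oxidation 10 (52.6%) fell in LPS kidneys, against 22.2% of all tested genes. Their median change was -0.84, against -0.16 for the 8 peroxisomal members and -0.60 for the 18 mitochondrial ones. The 1 gene that rose (5.26%, against 20.9% of all tested genes) was the peroxisomal thioesterase gene Acot8 (0.55, edgeR adjusted p = 0.0325). Amacr, the racemase of branched-chain acyl-CoA and bile acid intermediates, had 32.7 ± 8.4 CPM in LPS+Tβ4 kidneys, 20.3 ± 3.61 CPM in LPS kidneys and 242 ± 16.9 CPM in saline kidneys, and it was 11.9-fold lower in LPS than in saline kidneys (-3.57 ± 0.23, edgeR adjusted p = 4.3e-05). Hacl1, which splits 2-hydroxyacyl-CoA during α-oxidation, had 40.6 ± 17.4 CPM in LPS+Tβ4 kidneys, 10.3 ± 1.92 CPM in LPS kidneys and 39.6 ± 8.36 CPM in saline kidneys. Hacl1 alone of the 19 passed between LPS+Tβ4 and LPS kidneys (1.98 ± 0.31, adjusted p = 0.017). That is 5.26% of the list, near the 4.5% of all tested genes called higher. Of 25 further PPARα targets outside oxidation, 5 (20%) rose and 9 (36%) fell in LPS kidneys, against 20.9% and 22.2% of all tested genes, and 2 (8%) rose in LPS+Tβ4 against LPS kidneys, against 4.5%. The share that rose with endotoxin was thus near that of all genes. Those that rose included Hilpda, an inhibitor of lipid droplet breakdown, at 15.3 ± 4.74 CPM in LPS kidneys and 1.45 ± 0.19 CPM in saline kidneys (3.40 ± 0.34, adjusted p = 0.00021). The glycerol kinase gene Gk fell (-2.99 ± 0.22, adjusted p = 8.2e-05). The 2 that rose with the peptide were the pantetheinase gene Vnn1 (1.26 ± 0.24, adjusted p = 0.026) and Cyp4a31 (1.20 ± 0.24, adjusted p = 0.030). Of 17 genes of lipid synthesis and storage, 2 (11.8%) fell in LPS kidneys, the acyltransferase genes Gpam and Dgat2, a share below the 22.2% of all tested genes. In LPS+Tβ4 against LPS kidneys 2 (11.8%) were higher, against 4.5% of all tested genes. They were Dgat2 (0.96 ± 0.22, edgeR adjusted p = 0.041) and the lipid droplet gene Plin3 (0.80 ± 0.13, adjusted p = 0.017). In LPS+Tβ4 against saline kidneys 2 (11.8%) were higher, Plin3 and Plin5, a share near the 12.3% of all tested genes.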

How the data were processed

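Poly(A) RNA of kidneys from 3 mice per group was made into strand-marking paired-end libraries, per the labels' protocols. The authors deposited a raw count and an FPKM value for each gene and library. The submitters' processing notes name build GRCm38, StringTie 2.1.6, HISAT2 2.2.1, cutadapt 1.9, edgeR and DESeq2, without roles. The program that counted reads, and its strand setting, were not stated in these sources. The members and all gene lists were chosen with earlier results of these data known.

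Counts of all 9 libraries were fitted in R 4.3.3 by the 2-sided quasi-likelihood test of edgeR 4.0.16, TMM-scaled and with no covariate, for the 15015 genes averaging 0.5 FPKM or more, with Benjamini-Hochberg adjustment over these genes. The SE is the change divided by the square root of F. Library totals of 53 to 62 M counts left every member at 695 counts or more. All members could be named, with values by library for Ppara, Cpt1a and the up to 12 largest called changes per comparison, and of other lists mainly the smallest adjusted p. For the wider lists, 1 result is not reported here. Further values by library (Slc27a2, Acadl, Acads, Etfa, Etfdh, Ehhadh, Acaa1b, Cyp4a10) and the FPKM ratios were chosen after the values were seen. Alternatives were DESeq2 1.42.0, limma 3.58.1 on log2(FPKM + 1) and log2(FPKM + 0.1), other filters and scaling, fewer libraries, a replicate block and urothelial terms. The fit was tested on simulated data. Transcript identity came from BLAST+ 2.17.0 and figures from matplotlib 3.10.9.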

Additional observations from a re-analysis of the deposited data

How the results depend on the processing

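No called member changed sign in any alternative, over 23 calls of LPS against saline, 6 of LPS+Tβ4 against LPS and 18 of LPS+Tβ4 against saline, and 6, 0 and 7 of these calls held in every one. Members without a call crossed 0 in some alternative in 6, 13 and 6 cases. A term for the full urothelial list, which holds the endotoxin-responsive Krt20, left 2 members higher and 4 lower in LPS against saline, 0 higher in LPS+Tβ4 against LPS, and 4 higher and 4 lower in LPS+Tβ4 against saline. Over all tested genes it left 5.02% higher and 5.89% lower, 0.233% higher, and 5.2% higher and 4.35% lower, in the same order. In LPS+Tβ4 against LPS 11 members were higher with this term at an unadjusted edgeR p under 0.05. A term for the 5 uroplakins alone, chosen after seeing the data, and DESeq2 each called 1 member lower in LPS+Tβ4 against LPS, against 0. The uroplakin term called 2.99% and DESeq2 7.14% of all tested genes lower. In that comparison 0 members were higher with only the 6 libraries compared and 0 with the replicate block, and 19 with the third LPS and the third LPS+Tβ4 library left out, where the enzyme medians were 0.67 (mitochondrial) and 0.69 (peroxisomal), against 0.32 and -0.002. Over all tested genes 0.02%, 0.0333% and 6.51% were higher in these settings, in the same order. In LPS+Tβ4 against saline 5 members were lower with no expression filter and 4 with the replicate block, and limma on FPKM gave a mitochondrial median of 0.057 and 0.059 (pseudocounts 1 and 0.1), against -0.14, while its median over all genes shifted by 0.14 and 0.19. Lower in that comparison were 3.71% of 34310 genes with no filter and 7.57% of all tested genes with the block.

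With single libraries left out, members higher were 6 to 9 in LPS against saline, 0 to 7 in LPS+Tβ4 against LPS and 4 to 10 in LPS+Tβ4 against saline, and members lower were 11 to 20, 0 to 2 and 3 to 10. Over all tested genes 16.3% to 23.3%, 0.433% to 10% and 7.78% to 16.4% were higher in these fits. Lower were 16.2% to 22.7%, 0.02% to 7.76% and 6.29% to 13.9% of all tested genes. The mitochondrial median ran from -0.77 to -0.44, 0.149 to 0.546 and -0.20 to -0.05, and the peroxisomal median from -0.38 to -0.04, -0.202 to 0.447 and -0.17 to 0.12. The change of Cpt1a in LPS against saline was 0.009 with no filter and 0.063 and 0.064 with limma on FPKM, and ran from -0.309 to 0.125 without single libraries, and that of Ppara in LPS+Tβ4 against LPS ran from -0.091 to 0.385. The cause of these shifts was not tested. Same-numbered libraries of different groups had correlations of their deviations from -0.66 to 0.32, so the replicate numbers were not taken as pairs.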
